A study of Mus musculus with 4 samples.

Results

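MHC class I presentation and the immunoproteasome are represented here by 10 genes, chosen by name for their place in the pathway with earlier results of these data known, of the 46095 gene symbols counted in gastric RNA. They are the class I heavy chains *H2-K1* and *H2-D1*, the light chain *B2m*, the peptide transporter subunits *Tap1* and *Tap2*, tapasin (*Tapbp*), the immunoproteasome subunits *Psmb8*, *Psmb9* and *Psmb10*, and the transactivator *Nlrc5*. Almost every nucleated cell shows peptides of its own proteins at its surface on class I molecules, where CD8 T cells read them and where their absence is sensed by natural killer cells. The proteasome cuts the peptides, and interferon gamma exchanges its constitutive catalytic subunits for those of the immunoproteasome. The TAP transporter moves peptides into the endoplasmic reticulum, tapasin and the chaperones of the loading complex help to place them in the heavy chain, and NLRC5 drives transcription of many of the genes involved.

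RNA from the stomachs of 12-week-old C57BL/6 mice was sequenced, with 2 WT and 2 MYC-KI samples, to learn how *c-Myc* acts in gastric tumorigenesis. MYC-KI stands for *Atp4b-cre; Myc fl/+*, also written *Atp4b-cre;MycOE*, in which Cre recombinase under the *Atp4b* promoter turns on human *c-Myc* in the parietal cell lineage. WT samples are labelled wild type and come from *Myc fl/fl* mice, which carry the floxed *c-Myc* allele without Cre. The design text speaks of triplicates, and 2 samples of each genotype were analysed here. Nothing in the labels says whether replicates are separate animals, so the p-values measure the spread between these samples, which may be technical in MYC-KI. In WT the sex genes given below differ, so those 2 samples do not come from the same animal. All values are from whole stomach, in which fewer cells of a type and less RNA per cell cannot be told apart.

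The counts summed to 36152857 and 30260305 in WT replicates 1 and 2, and to 31350412 and 41463647 in MYC-KI replicates 1 and 2. Names and counts appear out of register in the deposited MYC-KI columns. The rule used to restore it was inferred from the names and the counts and is stated in no note of the submitters, and every MYC-KI value below depends on it. The names were sorted by character code and the counts of both columns, kept in their order, were given to the sorted names, while the WT columns stayed as they were. All 10 genes change row under this step. The counts that stand beside *B2m* in the deposited MYC-KI columns went to *B330016D10Rik*, those beside *Psmb10* to *Rap2c*, and those beside *Nlrc5* to *Nlrp12*. Over the 61 rows centred on each of the 10 genes, Pearson's r of log2(count + 1) between the genotypes lay between 0.935 and 0.993 after the step and between -0.04 and 0.37 before it. This r is across genes, which are not independent replicates.

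The libraries differed in other ways too. *Xist*, which is transcribed from the inactive X chromosome, had 85, 17846, 113 and 201 counts in WT replicate 1, WT replicate 2, MYC-KI replicate 1 and MYC-KI replicate 2, the order used for every set of 4 values below. *Ddx3y*, which lies on the Y chromosome, had 1861, 5, 1941 and 2623. WT replicate 2 thus carries the female pattern of these genes and the other 3 samples the male pattern. The mouse *Myc* row, which is not a row for the human transgene, had 1062, 759, 735 and 1091 counts. *Atp4b*, which encodes the beta subunit of the parietal cell proton pump, had 87583, 69469, 1301 and 2310, so both MYC-KI samples were far below both WT samples. *Krt13*, a keratin of the squamous forestomach, had 29727, 14283, 7574 and 61128 counts, with MYC-KI replicate 2 the highest and MYC-KI replicate 1 the lowest.

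Calls needed a change of more than 1.5-fold and, from edgeR's quasi-likelihood test, a p-value below 0.05 after Benjamini-Hochberg adjustment over all 17643 tested genes. Of the 10 genes 7 had enough counts to be tested, and 0 of these 7 were called. Across all tested genes 1892 (10.7%) were called, 996 (5.65%) higher and 896 (5.08%) lower in MYC-KI. At an unadjusted p-value under 0.05 the number was also 0 of 7, against 6024 (34.1%) of all tested genes, and DESeq2 called 0. The median log2 fold change of the 7 genes was -0.12, against 0.01 over all tested genes. *H2-D1*, *Psmb8* and *Psmb9* had too few counts to be tested. A block for the replicate number left 0 genes of the pathway lists below called. The number of class I genes called changed with the MYC-KI samples. Without MYC-KI replicate 1 *B2m* was called lower, and without MYC-KI replicate 2 *Psmb10* was called higher. Without either WT replicate 0 genes of the whole table were called, so these fits also lose each call given below.

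**Figure D1:**
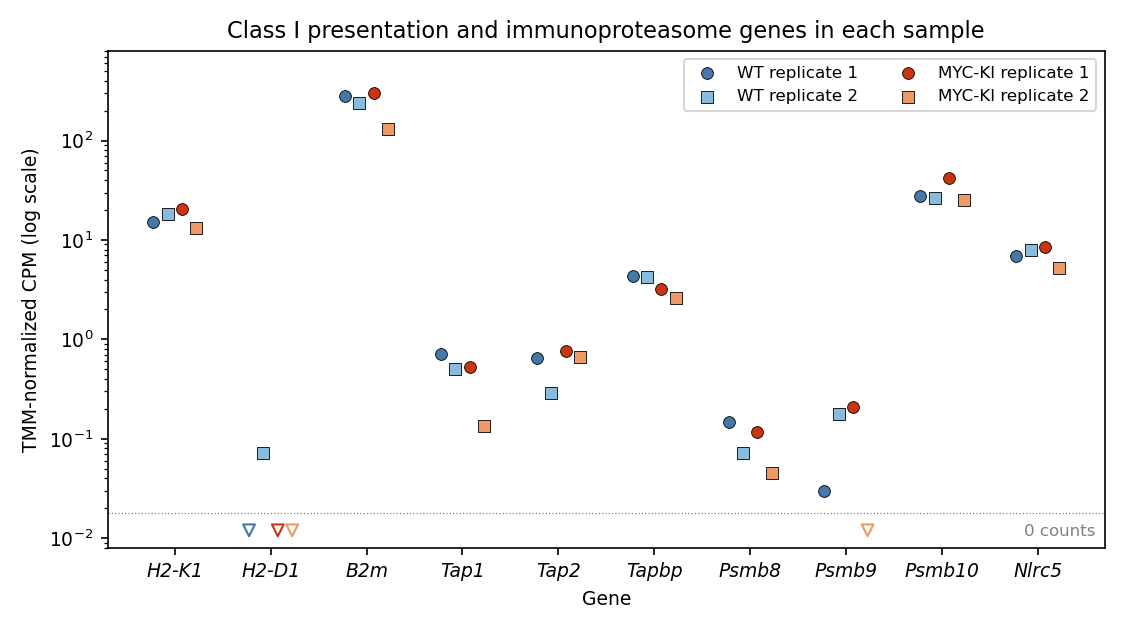
Counts after TMM normalization and scaling to library size (CPM, log axis) of the 10 genes in each of the 4 samples, with 1 point per sample and open triangles for 0 counts. *B2m* lies between 131 and 298 CPM, and *H2-D1*, *Psmb8* and *Psmb9* lie below 0.21 CPM in all 4 samples.

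*B2m* encodes the light chain that every classical class I heavy chain needs to reach the cell surface. It had 9327, 6684, 10124 and 5864 counts, which are 278, 240, 298 and 131 CPM after TMM normalization. MYC-KI replicate 1 was the highest sample and MYC-KI replicate 2 the lowest, with both WT samples between them. The means were 259 ± 27.1 CPM (SD, n = 2) in WT and 215 ± 118 (SD, n = 2) in MYC-KI. The log2 fold change was -0.27 (standard error 0.41, 95% confidence interval -1.37 to 0.83, adjusted p = 0.689 from edgeR). It was -0.98 without MYC-KI replicate 1 (adjusted p = 0.0317) and 0.21 without MYC-KI replicate 2 (adjusted p = 0.334), so its direction rests on which MYC-KI sample is used. Over the alternatives in the same register the adjusted p ranged from 0.0317 to 0.949. *B2m* lies at chr2:122147687-122153082 (GRCm38), inside the annotated span of *Patl2*, which had at most 1 count in any sample.

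*H2-K1* encodes the K heavy chain. It had 513, 503, 698 and 588 counts, or 15.3, 18.0, 20.6 and 13.2 CPM. The order of the samples was the same at the ends as for *B2m*, with MYC-KI replicate 1 highest and MYC-KI replicate 2 lowest. The means were 16.7 ± 1.94 CPM (SD, n = 2) in WT and 16.9 ± 5.24 (SD, n = 2) in MYC-KI, and the log2 fold change was 0.02 (standard error 0.26, 95% confidence interval -0.69 to 0.72, adjusted p = 0.970 from edgeR). This fold change was -0.34 without MYC-KI replicate 1 and 0.31 without MYC-KI replicate 2, so its direction turned. *H2-D1*, which encodes the D heavy chain, is listed at 0, 2, 0 and 0 counts. No fold is given for it.

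Heavy chains are near-identical in long stretches, so reads can be divided among their rows in ways that depend on the counting, and the value of a single heavy chain row is uncertain. The row *H2-T-ps*, with 7, 24, 19 and 26 counts, was not among the rows summed here. Of the H2-K, H2-D, H2-Q, H2-T and H2-M series 35 other rows were taken, and 18 of them have any count. Summed, they had 6662, 4931, 7722 and 6445 counts, or 199, 177, 228 and 144 CPM, and the MYC-KI samples again stood at both ends. The genotypes differed by -0.01 on the log2 scale in this sum (standard error 0.24, edgeR adjusted p = 0.976), with 188 ± 15.4 CPM (SD, n = 2) in WT and 186 ± 59.0 (SD, n = 2) in MYC-KI. The difference was -0.38 without MYC-KI replicate 1 and 0.28 without MYC-KI replicate 2, so its direction turned as well. Most counts of the sum are on 2 nonclassical rows outside the region of chromosome 17 described below. *H2-K1* and *H2-D1* lie in that region, so the shares of the rows are not levels of the chains. *H2-T23*, the Qa-1 chain that is read by NKG2A on natural killer cells, had 3529, 2478, 3894 and 3730 counts, and *H2-T22*, a ligand of some gamma delta T cells, had 1636, 1320, 1547 and 1525.

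Of the list of other class I heavy chains and class I-like genes, 20 are in the table and 11 were tested. Of these 0 were called higher and 2 lower (18.2%, against 10.7% of all tested genes), with a median log2 fold change of -0.34. *Cd1d1*, which shows lipids to natural killer T cells, had 123, 212, 24 and 43 counts, and both MYC-KI samples lay below both WT samples. It fell by 2.74 on the log2 scale (standard error 0.50, edgeR adjusted p = 0.0407). The call was lost without MYC-KI replicate 1 (adjusted p = 0.0773) and without MYC-KI replicate 2 (adjusted p = 0.0556). *Azgp1*, a secreted class I-like protein linked to fat breakdown, had 252, 368, 104 and 101 counts and fell by 1.96 on the log2 scale (standard error 0.38, edgeR adjusted p = 0.0462), a call likewise lost without MYC-KI replicate 1 (adjusted p = 0.0613) or 2 (adjusted p = 0.0745). Neither is a peptide-presenting heavy chain. The gene of the list with the next highest mean CPM after *H2-T23* and *H2-T22* was *Fcgrt*, the neonatal Fc receptor, with 1407, 954, 1070 and 1273 counts (log2 fold change -0.34, adjusted p = 0.180).

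*Tap1* and *Tap2* encode the subunits of the peptide transporter. *Tap1* had 24, 14, 18 and 6 counts, with MYC-KI replicate 2 the lowest and MYC-KI replicate 1 between the WT samples. *Tap2* had 22, 8, 26 and 30 counts, and in CPM (0.656, 0.287, 0.767 and 0.672) both MYC-KI samples lay just above both WT samples. The log2 fold change was -0.90 for *Tap1* (standard error 0.79, adjusted p = 0.477 from edgeR) and 0.59 for *Tap2* (standard error 0.57, adjusted p = 0.515). At such counts the interval for *Tap1* ran from -3.01 to 1.21 and that for *Tap2* from -0.93 to 2.11. The interval for *Tap1* holds changes of more than 2-fold in both directions. Leaving out each sample in turn moved *Tap1* between -2.15 and -0.20 and *Tap2* between 0.13 and 1.31. *Tapbp*, whose product tapasin bridges the transporter and the empty heavy chain, had 144, 117, 108 and 116 counts. In CPM these are 4.29, 4.19, 3.18 and 2.60, with both MYC-KI samples below both WT samples. Its edgeR adjusted p of 0.227 (log2 fold change -0.55, standard error 0.27) was the closest to the threshold among the 7 tested genes. *Tap2* and *Tapbp* were the 2 of 7 whose genotypes did not overlap, against 64.9% of all tested genes.

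Loading and trimming take further proteins beside the transporter and tapasin. All 12 genes of that list were tested, and 1 was called higher and 0 lower (8.33%, against 10.7% of all tested genes). The median log2 fold change was 0.15. *Lap3*, leucine aminopeptidase, which trims peptides in the cytosol, had 2359, 2035, 5030 and 6185 counts, with both MYC-KI samples above both WT samples. It rose from a mean of 71.6 CPM to 143 CPM (95% confidence interval of the log2 fold change 0.78 to 1.22, edgeR adjusted p = 0.0175). The genes of the list with the highest mean CPM were the chaperones *Hspa5*, *Calr* and *Pdia3*, with log2 fold changes of -0.33, 0.11 and 0.28 and adjusted p-values of 0.103, 0.448 and 0.114. *Calr* and *Pdia3* hold the heavy chain in the loading complex, and their counts were 28837, 23177, 30263 and 41633 for *Calr* and 26124, 21894, 32922 and 41177 for *Pdia3*.

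Of the immunoproteasome subunits only *Psmb10* (MECL-1) was well counted. It had 925, 738, 1425 and 1139 counts, or 27.6, 26.5, 42.0 and 25.5 CPM. MYC-KI replicate 1 stood above the other 3 samples, which lay between 25.5 and 27.6 CPM. The log2 fold change was 0.32 (standard error 0.26, 95% confidence interval -0.38 to 1.03, adjusted p = 0.447 from edgeR). It was 0.64 without MYC-KI replicate 2 (adjusted p = 0.0475) and -0.08 without MYC-KI replicate 1 (adjusted p = 0.725), and over the alternatives in the same register the adjusted p ranged from 0.0475 to 0.725. *Psmb8* (LMP7) had 5, 2, 4 and 2 counts, and *Psmb9* (LMP2) had 1, 5, 7 and 0. Both are listed at or near 0 in all 4 samples, and no fold is given for them.

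Each immunoproteasome subunit takes the place of a constitutive subunit. Within a sample the ratio of *Psmb10* to its constitutive counterpart *Psmb7* does not depend on the scaling between samples. On the log2 scale it was -1.90 and -1.88 in WT and -1.13 and -1.89 in MYC-KI, so MYC-KI replicate 1 was apart and MYC-KI replicate 2 was at the WT values. The mean difference between the genotypes was 0.38, which was smaller than the SD of 0.54 within MYC-KI. It was 0.76 without MYC-KI replicate 2 and -0.0037 without MYC-KI replicate 1. *Psmb7* had 3459, 2708, 3110 and 4230 counts and *Psmb5*, the counterpart of *Psmb8*, had 1444, 1316, 1745 and 3369. *Psmb6*, the counterpart of *Psmb9*, had 48, 61, 42 and 40. Of the 3 constitutive subunits 0 were called by edgeR, 0 had an unadjusted p under 0.05 (34.1% of all tested genes had) and 0 were called by DESeq2, but without MYC-KI replicate 1 *Psmb5* was called higher (log2 fold change 0.74, adjusted p = 0.0345). The ratios of *Psmb8* to *Psmb5* and of *Psmb9* to *Psmb6* rest on counts near 0 and are not given.

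The list of proteasome activators and assembly factors had 9 tested genes, with a median log2 fold change of 0.36. Of these 1 was called higher and 0 lower (11.1%, against 10.7% of all tested genes). *Psmg3*, a chaperone of proteasome assembly, had 372, 356, 750 and 972 counts and rose by 0.88 on the log2 scale (standard error 0.14, edgeR adjusted p = 0.0348), a call lost without MYC-KI replicate 1 (adjusted p = 0.0607). *Psme3*, which encodes the PA28 gamma activator of the nucleus, had 4346, 3557, 6003 and 7267 counts, and both MYC-KI samples lay above both WT samples, but it was not called (log2 fold change 0.40, edgeR adjusted p = 0.0522). *Psme4* had 171, 175, 175 and 170 CPM and *Pomp*, which helps to assemble both kinds of proteasome, had 67.6, 56.3, 63.9 and 66.1 CPM, with the genotypes overlapping in each. The genotypes also overlapped in the other PA28 genes, *Psme1* and *Psme2*. Their log2 fold changes were -0.12 and -0.18 (edgeR adjusted p = 0.675 and 0.513).

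*Nlrc5* encodes the class I transactivator. It had 229, 221, 285 and 233 counts, or 6.82, 7.92, 8.40 and 5.22 CPM. MYC-KI replicate 1 was once more the highest sample and MYC-KI replicate 2 the lowest. The log2 fold change was -0.12 (standard error 0.31, 95% confidence interval -0.94 to 0.71, adjusted p = 0.824 from edgeR). It was -0.50 without MYC-KI replicate 1 and 0.19 without MYC-KI replicate 2. Among the 33 genes listed as transactivators and interferon signalling, 28 were tested, and the median log2 fold change was 0.02. Of these 1 was called higher and 0 lower (3.57%, against 10.7% of all tested genes). Without MYC-KI replicate 1 *Ciita*, the class II transactivator, was called lower (log2 fold change -1.70, adjusted p = 0.0419). *Ptpn2*, a phosphatase that dampens interferon signalling, had 751, 620, 1430 and 1491 counts and rose by 0.76 on the log2 scale (standard error 0.15, edgeR adjusted p = 0.0476). That call was lost without MYC-KI replicate 1 (log2 fold change 0.58, adjusted p = 0.0701) and with the size factors of DESeq2 in edgeR (log2 fold change 0.75, adjusted p = 0.0503). *Jak1*, *Ifngr1* and *Ifngr2*, the genes of the list with the highest mean CPM, were not called. *Ifngr1*, a chain of the interferon gamma receptor, had 146, 160, 107 and 115 CPM, with an edgeR adjusted p of 0.0473 and a log2 fold change of -0.47 that is smaller than the threshold, and *Ifngr2*, the other chain, had 74.0, 76.3, 92.0 and 86.2 CPM with a log2 fold change of 0.25 (adjusted p = 0.114).

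Levels can be compared between genes only per length, and here only for *B2m*, *Psmb10* and *Nlrc5*, which lie outside the chromosome 17 region described next. Per kb of exon, the mean WT level was 301 CPM for *B2m*, 15.8 for *Psmb10* and 0.868 for *Nlrc5*. The SD over the 2 WT samples was 31.5, 0.460 and 0.0914, so the levels differ by more than their spread. In MYC-KI they kept this order, at 250, 19.8 and 0.802 CPM per kb.

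Most of the 10 genes lie close together in the genome. *H2-K1*, *H2-D1*, *Tap1*, *Tap2*, *Tapbp*, *Psmb8* and *Psmb9* lie in the MHC on chromosome 17, while *B2m* is on chromosome 2 and *Psmb10* and *Nlrc5* on chromosome 8. All 7 lie between *Rab11b* and *Vars2*, in a run at chr17:33774900-35650569 (GRCm38) of 111 protein-coding genes of which 0 reach 1000 counts in every sample. That limit was chosen after the values were seen, and the run ends at the first gene on each side that reaches it. Genes above the limit are thus left out of the run by rule but kept in the sets compared with it. The low share and median of the run are partly set by this rule. How often such runs occur elsewhere was not counted. In this run 9 genes (8.11%) had at least 100 counts in every sample. The share with at least 100 was 57.7% in the 111 genes before the run, 32.4% in the 111 genes after it and 57.9% over all 19028 protein-coding genes. The median of the mean count was 4.25 in the run, 274 before it, 23.8 after it and 380.0 over all protein-coding genes. Genes with 0 counts in all samples were not particular to the run, with 35 in it, 7 before it and 35 after it.

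Some genes that nearly every cell uses were near 0 in the run as well, in WT as in MYC-KI. The genes of this paragraph were named after their values were seen. *Csnk2b*, *Bag6*, *Clic1* and *Prrc2a* are listed at 0 in all 4 samples. *Ddx39b*, an RNA helicase of mRNA export, is listed at 1, 0, 0 and 0, and *Ndufa7*, a subunit of respiratory complex I, at 4, 0, 0 and 2. Not all such genes were low, and *Rps18*, a ribosomal protein gene in the run, had 753, 461, 1138 and 1680 counts. *H2-D1* stands in a stretch of 29 neighbouring genes, from *Vwa7* to *H2-Q2* at chr17:35016360-35346764, of which 25 are listed at 0 in every sample. The stretch holds 1, 4, 1 and 0 counts in all. Just outside the run, *Rab11b* had 1660, 1399, 1746 and 2280 counts and *Vars2* 2604, 2021, 1330 and 1782. Both end the run by rule, since they reach 1000 counts in every sample. Low counts in this run therefore give no level of expression for *H2-D1*, *Psmb8*, *Psmb9*, *Tap1*, *Tap2* or *Tapbp*, and *H2-K1* shares the region. The WT columns, which were not moved, show the same run, and its cause was not tested. *Psmb6* lies in a run of the same kind at chr11:69784036-70700285, where 13 of 60 genes (21.7%) had at least 100 counts in every sample.

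**Figure D2:**
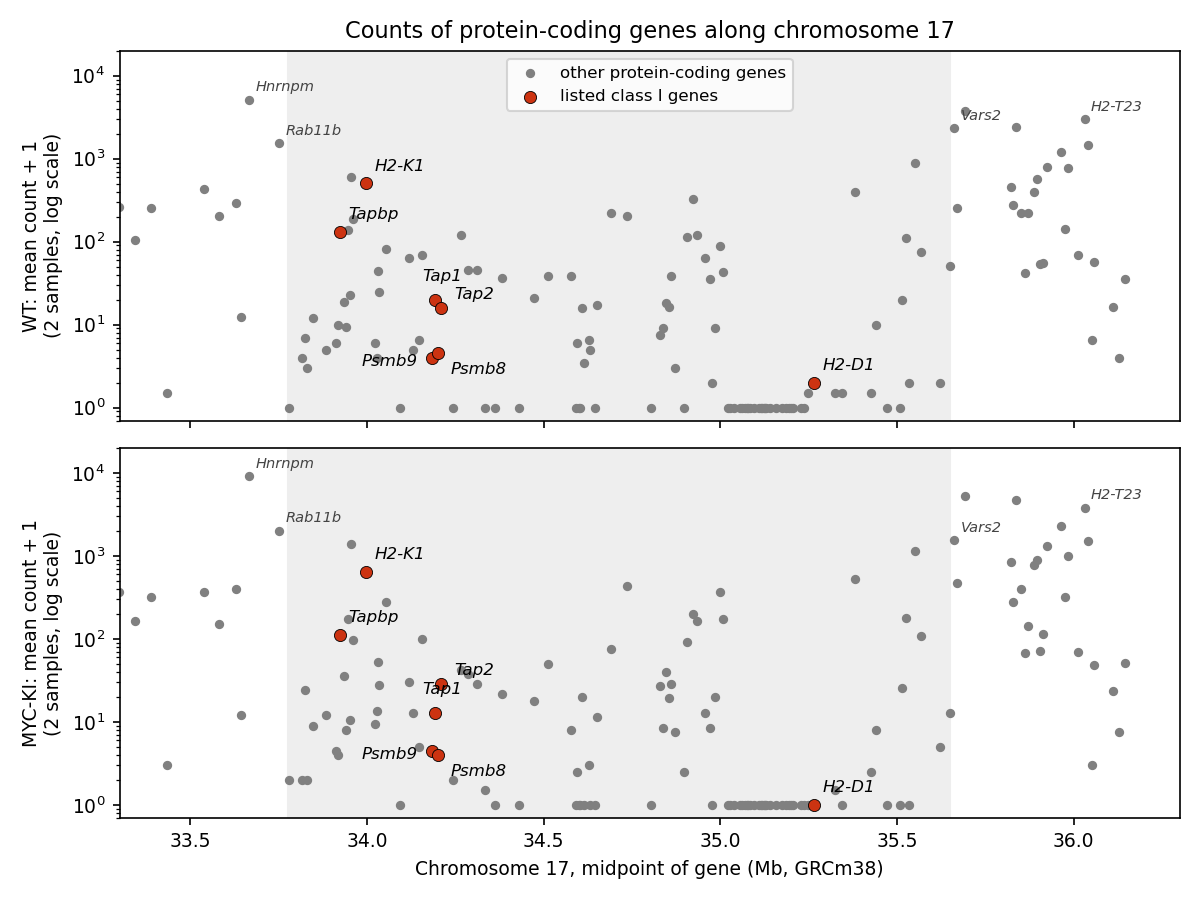
Mean count + 1 of the 2 WT samples (top) and the 2 MYC-KI samples (bottom), on a log scale, for each protein-coding gene along chromosome 17 (position in Mb, GRCm38), with 7 of the 10 genes in red and the run of 111 genes shaded. *H2-D1* sits in the stretch of 29 genes at or near 0. Genes on both sides of the shaded run reach above 1000, which the rule for its ends requires of the nearest.

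The samples of a genotype differed from each other in the tested genes, of which *Tap1* and *Tap2* had few counts. MYC-KI replicate 1 had a higher CPM than MYC-KI replicate 2 in all 7 tested genes, with a median log2 ratio of 0.69, while over all tested genes it was higher in 49.7% with a median log2 ratio of -0.0010. In WT the corresponding numbers were 5 of 7 genes, with a median log2 ratio of 0.06. The list of interferon-stimulated genes went the same way, with 31 of 32 genes higher in MYC-KI replicate 1 than in MYC-KI replicate 2 and a median log2 ratio of 1.20. In WT 23 of 32 were higher in replicate 1, with a median of 0.27. Loading and trimming genes did not, with 6 of 12 higher and a median of -0.0052. T and NK cell markers did (8 of 9, median 1.40), as did B and plasma cell markers (5 of 6, median 1.39). In WT the medians of these 2 lists were 1.54 and 0.03. Chief cell markers did in MYC-KI (4 of 5, median 0.69) and parietal cell markers did not (2 of 8, median -0.36). Surface and neck mucous markers were split, with 4 of 8 higher in MYC-KI replicate 1. Among these, *Tff2* was at 12341 CPM in MYC-KI replicate 1 and 5000 in MYC-KI replicate 2. *Muc6* had 7373 and 3667, *Gkn3* 5803 and 2035, and *Aqp5* 223 and 117. These are 4 of the list of 8 surface and neck mucous markers, whose median log2 ratio was 0.18. The other 4, *Muc5ac*, *Tff1*, *Gkn1* and *Gkn2*, were lower in MYC-KI replicate 1 than in MYC-KI replicate 2. Markers of other tissue layers went the other way. The summed CPM of 9 squamous forestomach markers was 2655, 1515, 891 and 4442, and 8 of the 9 were higher in MYC-KI replicate 2. The summed CPM of 8 smooth muscle markers was 8719, 5579, 2932 and 6115, and all 8 were higher in MYC-KI replicate 2. In WT all 9 squamous and all 8 smooth muscle markers were higher in replicate 1. Of the 8 mucous markers 0 were higher in WT replicate 1, so all 8 moved opposite to these layers in WT, against 4 of 8 in MYC-KI. For the class I and interferon-stimulated genes the opposite movement is seen in MYC-KI alone. The part of these markers in the spread of the class I genes was not tested.

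**Figure D3:**
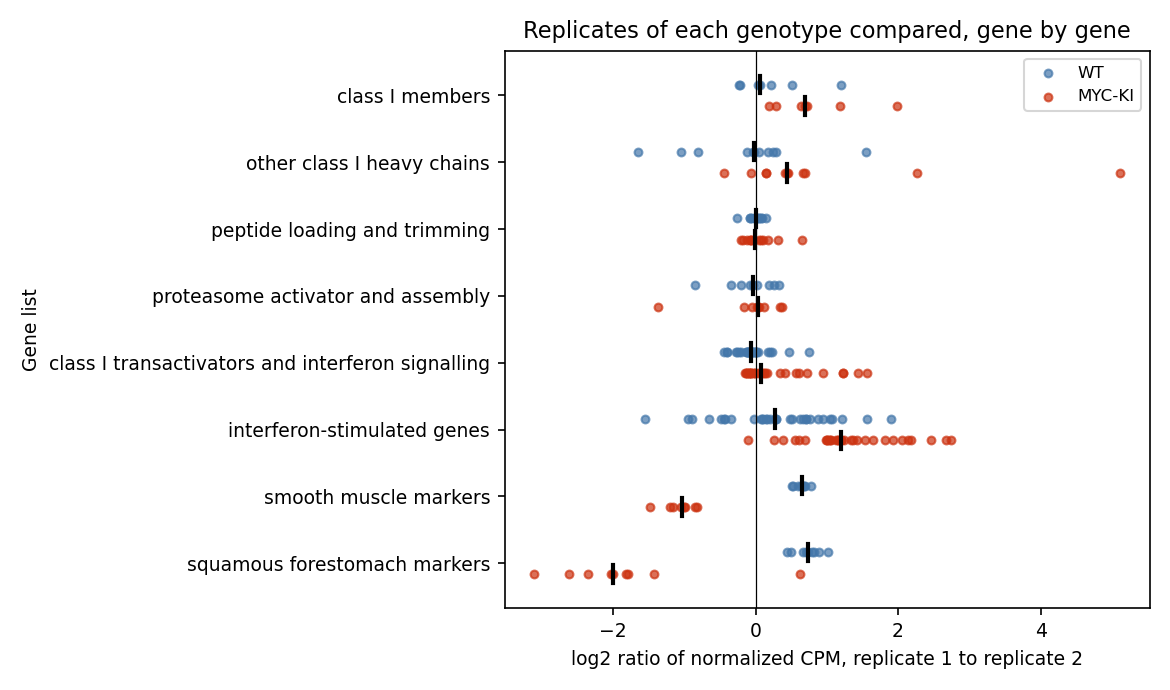
Log2 ratio of normalized CPM between replicate 1 and replicate 2 within WT (blue) and within MYC-KI (red), with 1 point per tested gene that has counts in both and a black bar at the median of each list. In MYC-KI the class I genes (median 0.69) and the interferon-stimulated genes (median 1.20) lie to the right, and the squamous and smooth muscle markers (median -1.03 for the latter) to the left.

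Interferon-stimulated genes were compared as a list because interferon gamma induces most of the class I genes. All 32 were tested, edgeR called 0 higher and 1 lower (DESeq2 0 and 2), and the median log2 fold change was -0.38. Across all tested genes edgeR called 5.65% higher and 5.08% lower. Without MYC-KI replicate 1 *Gbp3* (log2 fold change -1.48, adjusted p = 0.0372) and *Gbp4* (log2 fold change -2.01, adjusted p = 0.0441) were called lower too. *Gbp2*, a guanylate-binding GTPase that acts on intracellular pathogens, had 834, 654, 336 and 478 counts, with both MYC-KI samples below both WT samples. It fell by 1.23 on the log2 scale (standard error 0.13, adjusted p = 0.0212 from edgeR). It was also the gene of the list that was not higher in MYC-KI replicate 1 than in MYC-KI replicate 2. *Oasl2*, the gene of the list with the highest mean CPM, had 1623, 654, 1356 and 799 counts, so that replicate 1 was higher than replicate 2 in both genotypes. *Ifng*, *Ifnb1* and *Ifnl3* are listed at 0 in all 4 samples, as is *Tnf*, which lies in the run on chromosome 17.

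Of 10 class II genes 5 were tested, and edgeR and DESeq2 each called 0. An unadjusted p under 0.05 was found for 1 of the 5, against 34.1% of all tested genes. In all 9 of the 10 lie in the run on chromosome 17. *Cd74*, the invariant chain, which lies outside it, had 7086, 6339, 6324 and 4083 counts, or 211, 227, 186 and 91.4 CPM, with both MYC-KI samples below both WT samples and MYC-KI replicate 2 the lowest (log2 fold change -0.66, edgeR adjusted p = 0.270). Without MYC-KI replicate 1 it was called lower (log2 fold change -1.26, adjusted p = 0.0183). Of 8 genes for readers of class I 6 were tested and edgeR called 0, while DESeq2 called *Pirb* lower. An unadjusted p under 0.05 was found for 2 of the 6, against 34.1% of all tested genes. *Cd8a*, the co-receptor of cytotoxic T cells, had 54, 17, 74 and 57 counts. *Pirb* and *Lilrb4a*, inhibitory receptors of myeloid cells, had 95, 91, 45 and 59 and 51, 81, 76 and 86 counts. Over the 8 pathway lists together 106 genes were tested, and the median log2 fold change was -0.08. Of these 3 were called higher and 3 lower (5.66%), against 10.7% of all tested genes.

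Markers of immune cells moved in different directions. The counts below stand against all tested genes, of which edgeR called 5.65% higher and 5.08% lower, and 34.1% had an unadjusted p under 0.05. Of 12 tested macrophage and dendritic cell markers 0 were called higher and 7 lower, and their summed CPM was 384, 395, 140 and 139. *Lyz2*, with the highest mean CPM, had 140, 139, 45.0 and 47.1 CPM. Of 10 mast cell markers 6 were called higher and 1 lower, with a summed CPM of 140, 141, 277 and 280 and *Kit* with the highest mean CPM (57.1, 64.2, 56.0 and 53.4 CPM). *Kit* was not called, and the protease *Mcpt2* (5.42, 11.9, 67.3 and 64.5 CPM) was called higher. General leukocyte markers summed to 246, 273, 251 and 184 CPM, with 0 of 10 called higher and 1 lower by edgeR, 2 higher and 2 lower by DESeq2, and *Lcp1* with the highest mean CPM. T and NK cell markers summed to 11.5, 9.79, 19.1 and 6.31 CPM, with 0 of 9 tested genes called by edgeR, 0 at an unadjusted p under 0.05 and 0 called by DESeq2, and *Gzma* with the highest mean CPM, while *Cd2*, *Trac* and *Trbc2* had at most 3 counts in every sample. B and plasma cell markers summed to 93.1, 53.8, 211 and 48.6 CPM, most of it *Jchain*. Of their 6 tested genes 0 were called by edgeR, 2 were at an unadjusted p under 0.05 and 0 were called by DESeq2. *Ighm* and *Igkc* are listed at 0 in every sample, as are *Trac* and *Trbc2*. No level is read from these rows, and the cause of their 0 counts was not tested. In the T and NK and the B and plasma cell lists MYC-KI replicate 1 was the highest sample and MYC-KI replicate 2 the lowest, the same ends as for *B2m*, *H2-K1* and *Nlrc5*.

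All 8 parietal cell markers were called lower, against 5.08% of all tested genes. Their summed CPM was 11521, 11646, 438 and 519, and *Atp4a* had the highest mean CPM. Of 5 tested chief cell markers 4 were called lower, with a summed CPM of 84853, 80511, 1198 and 1518 and *Pgc* with the highest mean CPM. *Lipf* had at most 3 counts in every sample, and *Pga5* overlapped between the genotypes (34.3, 27.0, 38.2 and 23.7 CPM). Surface and neck mucous markers summed to 56939, 68529, 36698 and 28012 CPM, with 0 of 8 called higher and 4 lower, and *Gkn2* with the highest mean CPM. The 4 called lower were *Muc5ac*, *Tff1*, *Gkn1* and *Gkn2*. The neck genes *Tff2*, *Muc6*, *Gkn3* and *Aqp5* were not called, and each was higher in MYC-KI replicate 1 than in the other 3 samples. Of 8 endothelial markers 7 were called lower, with a summed CPM of 621, 597, 251 and 223 and *Plvap* with the highest mean CPM. Whether the class I genes differ in level within a cell type was not tested.

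Promoter windows are shown for *B2m*, *H2-K1* and *H2-D1*, the light chain and the 2 heavy chains, because *B2m* and *H2-K1* had their extremes in the same samples while *H2-D1* is listed at or near 0. RefSeq windows (GRCm38.p6) were matched for 8 of the 10 genes, all but *Tap2* and *Nlrc5*, and the 250 bases before the start that the table gives were searched on both strands. The motifs were the E-box CACGTG, which MYC and MAX can bind, TGACG, and ATTGG, the reverse complement of the CCAAT box. They were found in 6.02%, 17.8% and 33.8% of the 32851 windows of the same length. Capitals mark every match, and sequences run 5′ to 3′ on the strand of the gene.
*B2m*, chr2:122147437-122147686, plus strand: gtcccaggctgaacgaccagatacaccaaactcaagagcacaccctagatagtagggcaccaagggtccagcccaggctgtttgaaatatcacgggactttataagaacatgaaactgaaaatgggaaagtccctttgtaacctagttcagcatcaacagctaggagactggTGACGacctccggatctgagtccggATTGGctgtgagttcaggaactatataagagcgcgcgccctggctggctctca
*H2-K1*, chr17:34000348-34000597, minus strand: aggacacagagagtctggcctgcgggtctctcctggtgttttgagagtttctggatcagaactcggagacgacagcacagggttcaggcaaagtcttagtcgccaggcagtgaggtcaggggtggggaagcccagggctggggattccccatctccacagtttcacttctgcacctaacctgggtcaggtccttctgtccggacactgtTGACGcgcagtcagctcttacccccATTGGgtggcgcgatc
*H2-D1*, chr17:35262844-35263093, plus strand: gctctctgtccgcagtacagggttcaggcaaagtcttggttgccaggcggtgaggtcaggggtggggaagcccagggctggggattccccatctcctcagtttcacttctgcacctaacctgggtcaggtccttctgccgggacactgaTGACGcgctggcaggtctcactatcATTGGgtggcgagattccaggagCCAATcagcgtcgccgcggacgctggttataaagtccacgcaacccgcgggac
The *H2-K1* window lies inside the annotated span of the gene, which reaches chr17:33996012-34000619. All 3 windows hold TGACG and then ATTGG, with 25 bases from the first base of TGACG to that of ATTGG in each. TGACG was also found in the windows of *Tap1* and *Psmb9*, and ATTGG in those of *Tap1*, *Psmb9* and *Tapbp*. *Tap1* and *Psmb9* point away from each other and their starts lie 226 bases apart, so these 2 windows share most of their sequence. CACGTG was found in the window of *Psmb10* alone. A match is a description of these letters, not of a bound site.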

How the data were processed

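The authors deposited a table of raw counts per gene symbol, with 1 column per sample and no normalization. The submitters' processing notes name HISAT2 and mm10. Versions, the counting tool and the annotation are not given in the sources used here. The genes and lists were chosen with earlier results of these data known. Names were sorted by character code and the MYC-KI counts given to them in order. Genes were tested on the whole table with edgeR 4.0.16 in R 4.3.3 (TMM, filterByExpr, glmQLFit, glmQLFTest, no covariates), and called at an absolute log2 fold change over 0.585 with an adjusted p below 0.05. Standard errors are the absolute log2 fold change over the square root of F. Alternatives were DESeq2 1.42.0, its size factors, library size, 2 filters, a replicate block, 2 fold thresholds, leaving out each sample, and the table as deposited. Named genes are the 10 genes, of each pathway list the called and the 3 genes of highest mean CPM (of interferon-stimulated and class II genes the highest), and of each cell type list the gene of highest mean CPM and those with at most 3 counts in every sample. Other named genes were chosen after their values were seen. Exon lengths are from GENCODE M21 and positions from RefSeq GRCm38.p6.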

Additional observations from a re-analysis of the deposited data

How the results depend on the processing

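Of the 7 tested genes, *Tap1*, *Tap2* and *Tapbp* kept the sign of their log2 fold change under every alternative in the same register that could fit them. *B2m* and *Psmb10* did so except when a MYC-KI sample was left out. Under a minimum of 10 counts in every sample *Tap1* and *Tap2* were not fitted. Leaving out each sample moved *B2m* between -0.98 and 0.21, *Psmb10* between -0.0818 and 0.64, *H2-K1* between -0.34 and 0.31, *Nlrc5* between -0.50 and 0.19, *Tap1* between -2.15 and -0.20, *Tap2* between 0.13 and 1.31, *Tapbp* between -0.71 and -0.41, and the summed heavy chains between -0.38 and 0.28. In these fits a genotype with 1 sample is assumed to vary like the other. The number of class I genes called then lay between 0 and 1, that of pathway list genes between 0 and 7, and that of all genes between 0 and 2470, and the log2 ratio of *Psmb10* to *Psmb7* differed between the genotypes by -0.0037 to 0.76. Without WT replicates 1 and 2, where 0 genes were called, 3554 and 3410 had an unadjusted p under 0.05.

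Library size in place of TMM called 3011 genes, 75.5% of them higher against 52.6%, moved the median log2 fold change of all genes to 0.23, and turned *Nlrc5* to 0.11 and the summed heavy chains to 0.21, both below that median. DESeq2 called 3234 genes, and a log2 fold change above 1 left 1113. Same-numbered samples are not known to be related, and their deviations had an r of 0.07 across genes. With the replicate block 114 genes and 0 pathway list genes were called, and *H2-K1* was at -0.0120.

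The table as deposited called 18580 genes, 7 class I genes and 88 pathway list genes. It gave log2 fold changes of -6.64 for *H2-K1*, 1.77 for the summed heavy chains, 3.25 for *Azgp1*, -14.25 for *Lap3*, -0.0910 for *Psmg3* and -12.57 for *Ptpn2*, and a difference in the *Psmb10* to *Psmb7* ratio of 1.95. Under the register inferred here, its MYC-KI counts belong to other genes. The alternatives for the pathway lists and their 6 called genes were chosen after the data were seen.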

Other observations

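Further cell type lists were counted as well. Across all tested genes edgeR called 5.65% higher and 5.08% lower, and 34.1% had an unadjusted p under 0.05. Adipocyte markers summed to 156, 429, 15.1 and 31.8 CPM in WT replicates 1 and 2 and MYC-KI replicates 1 and 2, with 0 of 6 called higher and 2 lower and *Cfd*, complement factor D, with the highest mean CPM. Blood markers summed to 237, 73.8, 26.6 and 29.8 CPM, with 0 of 5 called higher and 1 lower and *Hba-a1* with the highest mean CPM. Pancreatic acinar markers summed to 405, 340, 130 and 152 CPM, with 0 of 4 tested genes called higher and 2 lower. Most of that sum was *Cela1*, and *Cpa1*, *Prss2* and *Amy2a5* had at most 3 counts in every sample. These calls are from edgeR. DESeq2 called 4 adipocyte, 4 blood and 4 pancreatic acinar markers lower and 0 higher. Of smooth muscle markers, with *Myh11* the highest in mean CPM, edgeR called 0, with 0 at an unadjusted p under 0.05 and 0 called by DESeq2. Of squamous markers, with *Krt13* the highest in mean CPM, edgeR called 0, with 1 at an unadjusted p under 0.05 and 1 called by DESeq2.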
